A study of Drosophila melanogaster with 2 samples.

Results

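The semaphorin and plexin genes of Drosophila melanogaster were examined for binding of Hr51, a nuclear receptor of the NR2E group that is also called unfulfilled. The genes are 7 of the 13945 protein-coding genes on the main chromosome arms, taken by name: the ligand genes Sema1a, Sema1b, Sema2a, Sema2b and Sema5c and the receptor genes PlexA and PlexB. Binding was measured by chromatin immunoprecipitation and sequencing (ChIP-seq) in whole embryos of mixed sex, 14 to 16 h old, from the transgenic strain Dhr51-GFP. In that strain Hr51 carries green fluorescent protein at its C terminus, and the precipitation used an antibody against that tag. All material came from this single line, and no second genotype or untagged group was used here. Whole embryos were processed, so the cells in which a site was bound are unknown. The 2 samples, biological replicates 1 and 3, form 1 group, so no contrast between conditions was made and no test was run. Values of the replicates stand beside those of the joint list.

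Semaphorins are secreted or membrane-bound guidance cues that share an extracellular sema domain, and plexins are their receptors. In the fly, membrane-bound Sema1a acts on PlexA and also signals in reverse as a receptor, while the secreted Sema2a and Sema2b act through PlexB. Sema1b is a second membrane-bound ligand of PlexA, and Sema5c is a membrane-bound semaphorin with thrombospondin repeats. Plexin signalling changes the actin cytoskeleton of growth cones, which steers motor axons out of their bundles and places axon tracts in the embryonic nerve cord.

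Each replicate had a list of 30000 peaks, as had the reads of both replicates pooled. A joint list of 7229 peaks had passed an irreproducible discovery rate (IDR) threshold, and its peaks are called reproducible here. The signal of a peak is the authors' score. Its scale is not stated in the labels or the deposited files, and it is used only to rank and describe peaks within a list. In the reproducible list it ran from 135 to 5850 with a median of 270. The highest signal among the other 22771 pooled peaks, called weaker here, was 135.105, below the lowest of 135.13 in the joint list. The joint list thus holds the pooled peaks of highest signal, and being in it does not show a match in each replicate. Of its peaks, 7036 (97.3%) overlapped a peak in both replicates, as did 14538 (63.8%) of the weaker ones. Depth is unknown, and a single peak's signal has no error. The summit is the position of highest signal in a peak, and a summit belonged to a gene when it lay in the gene body or within 1 kb of it.

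Hr51 summits lay at 4 of the 5 semaphorin genes and at 1 of the 2 plexin genes. Sema1a had 10 of the 17 summits and Sema5c had 4, while Sema1b, Sema2a and PlexA had 1 each. Sema2b and PlexB had none. Of all protein-coding genes, 30.4% had a summit in the body or within 1 kb. That share depends on gene length and was 57.6% for genes of 10 to 20 kb (Sema1b, Sema5c, PlexA and PlexB are of this size). It was 72.9% for genes of 20 to 50 kb (Sema2a and Sema2b) and 80.8% for genes of 50 kb or more (Sema1a). Having a summit is therefore common at genes of these sizes, and the 4 of 5 ligand genes are near those shares. Both plexin genes lie on chromosome 4, where 5.0% of the protein-coding genes (4 of 80) had a summit, so their size class is no guide to them. A summit within 1 kb of an annotated start was present at 4 of the 7 genes, against 23.3% of all protein-coding genes. That share was not split by length, and the median length of all protein-coding genes is 2.17 kb, below that of every member. Among the 4, the Sema1b and PlexA summits each overlapped a peak in 1 replicate only.

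**Figure D1:**
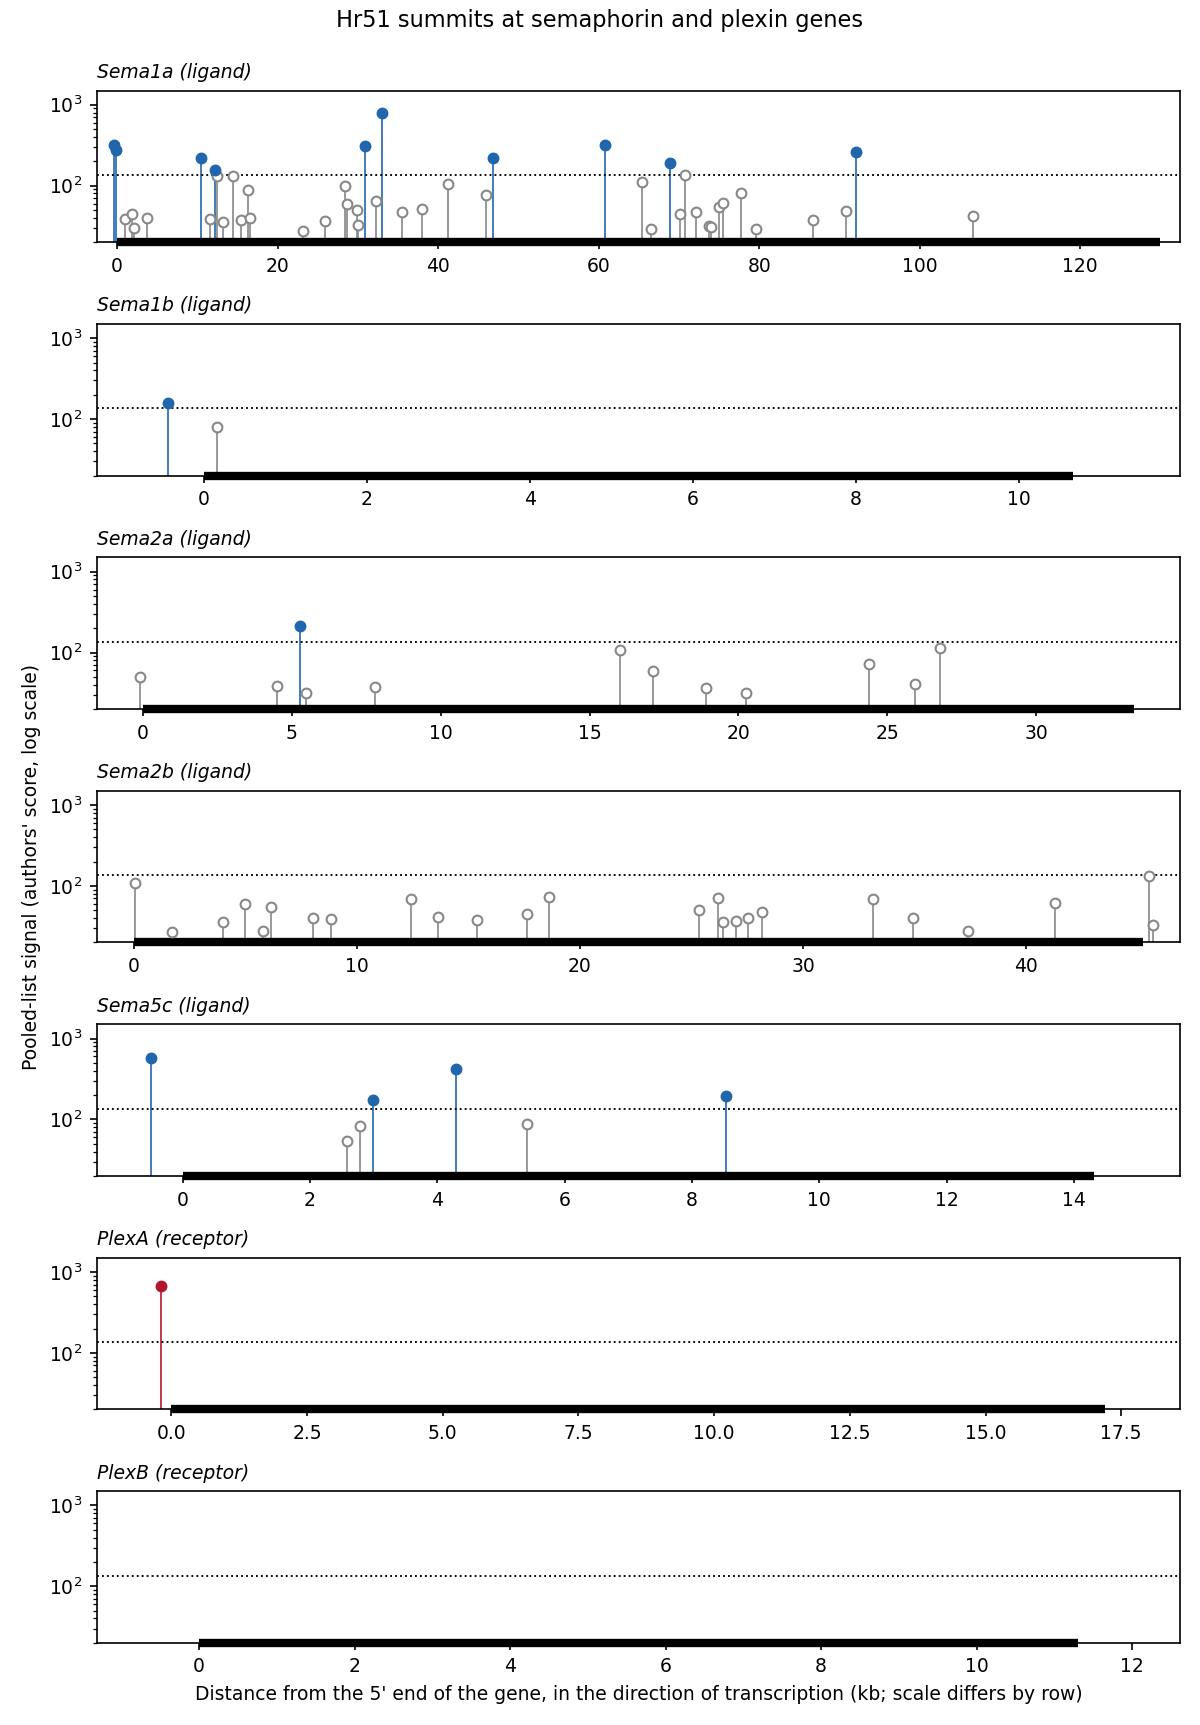
Pooled-list summits at the 7 genes, drawn by distance from the 5′ end of the gene (kb, in the direction of transcription, with its own scale in each row) and signal (authors' score, log scale). Filled points are reproducible summits, open points weaker pooled summits, the dotted line the lowest reproducible signal of 135, and the black bar the gene. Sema1a holds 10 reproducible summits along its introns and start, PlexA a single summit at its start, Sema2b only weaker summits, and PlexB none.

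The summits lay in introns and upstream of starts. The ligand genes held 16 summits, 12 in introns of the gene and 4 upstream of a start, whereas the receptor genes held 1, upstream of the start of PlexA. None of the 17 fell in coding sequence. The 5 upstream summits lay 99 to 497 bp from the nearest start of their gene, and the 12 intronic ones lay 2988 to 90840 bp from it. For the intronic Sema1a summits that is the second start, 1183 bp downstream of the first. Their positions below are counted from the 5′ end instead. Of the 17 summits, 5 (29.4%) were within 1 kb of a start of any gene, against 46.5% of the 7229. The 16 ligand summits had signals from 157 to 790 with a median of 242, below the median of 270 for the whole list, and 7 of the 16 were above it. The receptor summit, at 679, was above 15 of the 16, but it has no overlapping peak in replicate 1. Per length, the ligand genes with their flanks held 0.657 summits per 10 kb and the receptor genes 0.308, against 0.654 over all protein-coding genes. Both receptor genes lie on chromosome 4. Its protein-coding genes held 0.158 pooled summits per 10 kb, reproducible and weaker together, against 2.25 over all protein-coding genes. The weaker ones made up 0.116 of the 0.158 and 1.59 of the 2.25. The value over all genes is therefore no guide to the receptor value. The 0.308 counts reproducible summits only and is not on the same measure as the 0.158. The receptor value falls to 0 when the highest 7229 peaks of replicate 1 are used in place of the joint list. With 2 receptor genes and 1 summit, this is a description of those genes and shows no difference between the classes.

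**Figure D2:**
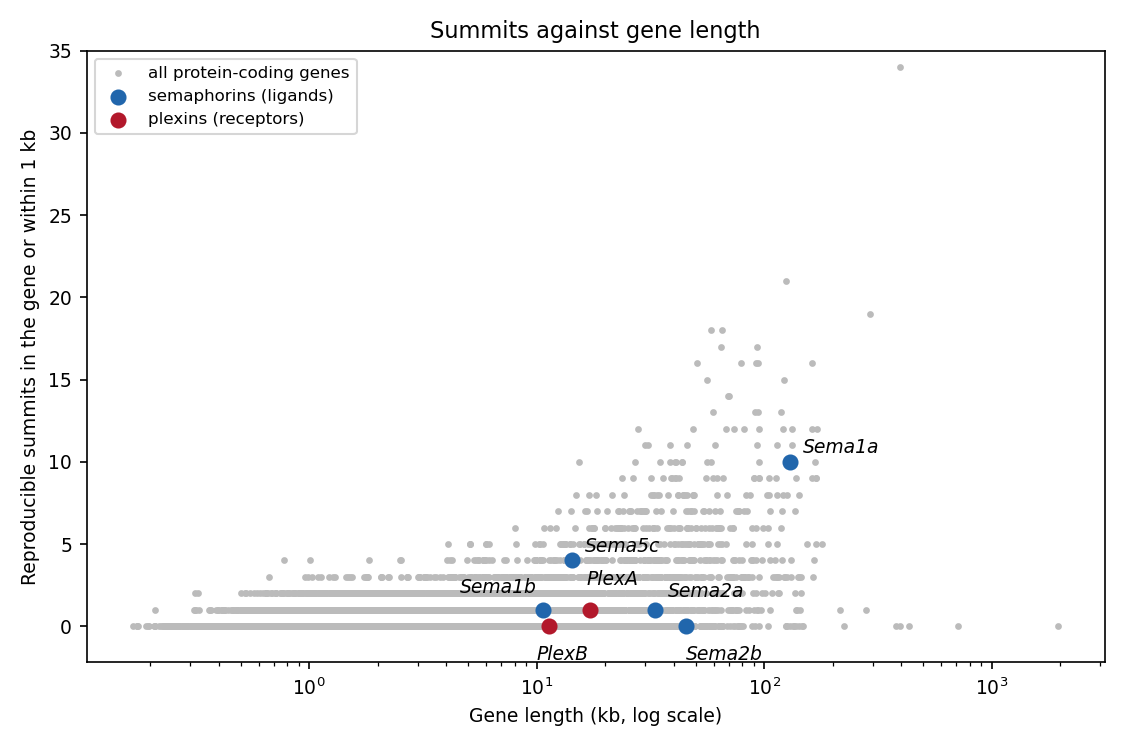
Number of reproducible summits in each protein-coding gene or within 1 kb of it, against gene length (kb, log scale). Grey points are all 13945 genes, blue points semaphorins and red points plexins. Sema1a reaches 10 summits at 130 kb and Sema5c reaches 4 at 14.3 kb, while Sema2b at 45.2 kb and PlexB at 11.3 kb are at 0.

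Sema1a, the membrane-bound ligand of PlexA, had the most summits of the family and the strongest one. The gene (FBgn0011259, chr2L:8542147-8672041, plus strand, dm6) is 130 kb long with 2 annotated starts, the second 1183 bp downstream of the first. Its 10 summits compare with a median of 3 at the 307 genes of 50 kb or more, and 37 of those 307 (12.1%) had at least as many. Over all protein-coding genes, 51 (0.366%) had 10 or more. Its density of 0.758 per 10 kb compares with 0.444 for the genes of 50 kb or more.

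The strongest Sema1a summit was intronic. It lay 33.001 kb from the 5′ end in intron 3 of the canonical transcript, in the peak chr2L:8574999-8575339, with a signal of 790 and rank 891 of 7229. The overlapping peaks had a signal of 368 in replicate 1 and 423 in replicate 3, at ranks 820 and 989 of 30000. It stood high in both lists, with replicate summits 11 and 4 bp from the joint summit. A neighbour 2.07 kb upstream of it (chr2L:8572955-8573223, signal 311) had 157 in replicate 1 and 158 in replicate 3. A tRNA gene, tRNA:Phe-GAA-1-3, starts 2186 bp from that neighbour and lies in the same intron.

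The promoter of Sema1a carried a pair of summits, 332 and 99 bp upstream of the first start. The farther summit (chr2L:8541610-8542019) had a signal of 319 and lay in tRNA:Asp-GTC-1-5, a transfer RNA gene whose start is 54 bp away, so the summit cannot be assigned to Sema1a alone. The nearer summit (chr2L:8541910-8542186) had a signal of 279. Its nearest start was that of Sema1a, but tRNA:Asp-GTC-1-4 and tRNA:Asp-GTC-1-5 also start within 1 kb of it. In replicate 1 the paired summits matched separate peaks, with signals of 223 and 168. In replicate 3 both overlapped the same peak, with a signal of 143 and its summit 238 bp from the farther and 5 bp from the nearer. The pair was thus resolved in replicate 1 only.

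The other 6 intronic summits of Sema1a had signals from 157 to 322. They lay 10.498 and 12.2 kb from the 5′ end in intron 2, 46.803, 60.744 and 68.924 kb in intron 3, and 92.023 kb in intron 4. The one at 60.744 kb was the strongest of them, with 322 in the joint list, 175 in replicate 1 and 140 in replicate 3. Of these 6, the one at 68.924 kb differed most in rank between the lists, with 67.5 at rank 7818 in replicate 1 and 125 at rank 4439 in replicate 3. The final 37.9 kb of the gene had no reproducible summit and the final 23.3 kb no pooled summit. All 10 summits overlapped a peak in both replicates.

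The DNA at 3 Sema1a summits is shown, since these are the strongest summit, the one nearest the start and the only one of the 16 member windows examined with the NR2E half-site AAGTCA. Each holds 50 bases on either side of the summit, on the plus strand of dm6, and capitals mark AAGTCA.
Sema1a, 33.001 kb (chr2L:8575098-8575198): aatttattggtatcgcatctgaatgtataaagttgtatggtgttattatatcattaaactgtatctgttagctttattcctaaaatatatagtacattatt
Sema1a, 99 bp upstream (chr2L:8541998-8542098): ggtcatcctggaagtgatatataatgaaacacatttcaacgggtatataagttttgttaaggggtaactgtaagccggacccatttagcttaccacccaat
Sema1a, 92.023 kb (chr2L:8634120-8634220): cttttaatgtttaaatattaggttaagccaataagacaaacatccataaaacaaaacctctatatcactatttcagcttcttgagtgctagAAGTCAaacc
The strongest window is 23.8% G+C and the window nearest the start 39.6%, against a median of 29.7% over all 7229 windows. In the third window AAGTCA begins 41 bases from the summit, near the window's edge.

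Sema5c had the highest density of summits in the family. The gene (FBgn0284221, chr3L:12067511-12081830, minus strand) is 14.3 kb long with a single annotated start. Its 4 summits are 2.45 per 10 kb, against 0.792 for the 964 genes of 10 to 20 kb, of which 91 (9.44%) had 4 or more. The strongest, 497 bp upstream of the start, had a signal of 580 in the joint list, 266 in replicate 1 and 304 in replicate 3. Both replicates ranked it high, at 1383 and 1593 of 30000. No start of another gene lay within 1 kb of it.

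The other Sema5c summits all lay in intron 3 of the canonical transcript, 2.988, 4.296 and 8.535 kb from the start. The middle one (chr3L:12077413-12077650) had a signal of 426, with 143 in replicate 1 (rank 3201 of 30000) and 282 in replicate 3 (rank 1754). Its replicate ranks were the farthest apart in this gene, although both replicate summits lay within 1 bp of the joint one. The summits at 2.988 and 8.535 kb were weak, at 175 and 196, with replicate signals from 86.8 to 105. For the last of these, the nearest annotated start belongs to the neighbouring gene rols, which is needed for myoblast fusion, at 8436 bp. A further reproducible summit of signal 231 lay 2290 bp upstream of Sema5c, outside the 1 kb limit but with the Sema5c start as the nearest coding start.

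The window of the Sema5c summit at 4.296 kb is shown because it is the most A+T-rich of the 16 member windows whose sequence was examined. It has the same width and strand as the Sema1a windows and no letters in capitals, since no motif was found in it.
Sema5c, 4.296 kb (chr3L:12077484-12077584): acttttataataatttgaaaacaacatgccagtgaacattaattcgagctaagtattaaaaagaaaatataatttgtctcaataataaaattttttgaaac
The window is 20.8% G+C, and 814 of the 7229 windows (11.3%) were as low or lower. The 6 motifs searched are described with their counts after the plot of base composition.

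**Figure D3:**
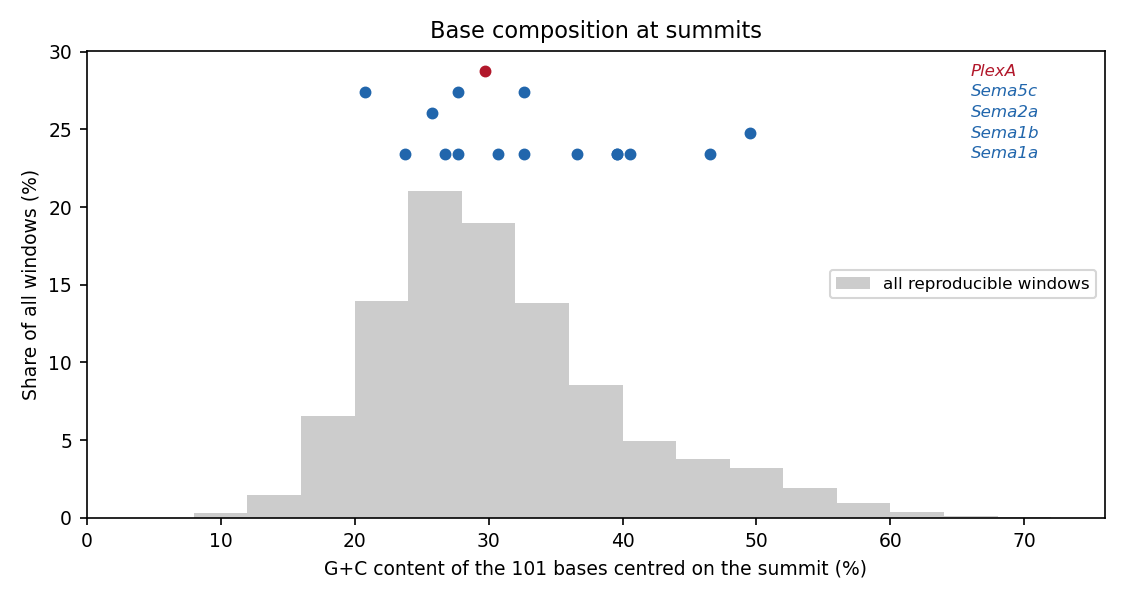
G+C content of the summit base with 50 bases on either side (%). The grey bars give the share of all 7229 reproducible windows (%) per bin, and the points above them the 16 member windows examined, by gene, blue for ligands and red for PlexA. The points run from the Sema5c window at 20.8% to the Sema1b window at 49.5%.

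The window compositions of the family lay around the middle of the list. The 16 windows ran from 20.8 to 49.5% G+C with a median of 31.7%, against 29.7% over all windows, and 6 lay below the median of all windows. The motifs searched on both strands were AAGTCA and AGGTCA (half-sites of nuclear receptors), GAGAG (GAGA factor), GATAA (GATA factors), CAGGTA (Zelda) and CACGTG (an E-box). AAGTCA was in 1 of the 16 windows, against 5.92% of all windows. AGGTCA was in none of the 16, against 2.14% of all windows. CAGGTA and the E-box were also in none, against 1.62% and 0.498% of all. GATAA was in 4 of 16, against 23.8%. GAGAG was also in 4 of 16, against 8.30% of all windows. Those were the Sema1a summits at 332 bp upstream and 60.744 kb, the Sema5c summit at 2.988 kb and the PlexA summit. A match gives letters in a window and not a bound site.

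Sema1b, the other membrane-bound ligand of PlexA, had a single weak summit. The gene (FBgn0016059, chr2R:17672839-17683499, minus strand) had its summit 432 bp upstream of the start (chr2R:17683726-17684135), with a signal of 158 at rank 6243 of 7229. The summit lies in an intron of HPS4, whose start is 357 bp away, nearer than that of Sema1b. The summit also has a start of CG42561 within 1 kb. It overlapped a replicate 1 peak with a signal of 118 (rank 4124 of 30000) and no replicate 3 peak. The nearest replicate 3 summit was 566 bp away with a signal of 53.0. This was 1 of the 42 reproducible peaks (0.581%) that overlapped a peak in replicate 1 only.

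The secreted ligand genes carried little above the reproducible threshold. Sema2a (FBgn0011260, chr2R:16500178-16533459, plus strand, 33.3 kb) had 1 summit, in an intron 5298 bp from its first start (chr2R:16505403-16505583). It is not in an intron of the canonical transcript, and the other Sema2a starts lie 15972 and 16276 bp from the first. The signal of this summit was 212 in the joint list, 99.0 in replicate 1 and 111 in replicate 3, at ranks 5056 and 5023 of 30000. The replicates thus placed it at nearly the same rank. Genes of 20 to 50 kb had a median of 2 summits and 0.711 per 10 kb, and Sema2a had 0.283 per 10 kb. A weaker pooled summit of signal 107 lay in the 5′ UTR, 45 bp downstream of a later Sema2a start. It had 47.5 in replicate 1 and 53.5 in replicate 3.

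Sema2b (FBgn0264273, chr2R:16386524-16431758, plus strand, 45.2 kb) had no reproducible summit but 25 pooled summits, all below the lowest reproducible signal of 135. Their median was 41.8, and 15 of the 25 overlapped a peak in both replicates. The strongest, at 134, lay just past the end of the gene and 218 bp from the start of the next gene, jtb. The next, at 110, was 29 bp downstream of the first Sema2b start (chr2R:16386348-16386757) in the 5′ UTR, with 63.6 in replicate 1 and 52.6 in replicate 3. Just outside the 1 kb limit, a reproducible summit of signal 155 lay 1495 bp from the gene, with the Sema2b start as its nearest coding start. The absence of Sema2b from the genes with a summit thus rests on both limits.

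Weaker summits were found at all 5 ligand genes and at neither plexin gene. Below the reproducible threshold, Sema2b had 25 pooled summits, Sema1a 36, Sema2a 11, Sema5c 3 and Sema1b 1. Per length these are 5.29 weaker summits per 10 kb at Sema2b, 3.12 at Sema2a, 2.73 at Sema1a, 1.84 at Sema5c and 0.790 at Sema1b, against 1.59 over all protein-coding genes. Sema2b thus has the highest density of weaker summits in the family and Sema1b lies below the genome-wide value. The protein-coding genes of chromosome 4 had 0.116 per 10 kb, and that chromosome had 26 pooled peaks in all. Of the 76 weaker summits at the family, 48 (63.2%) overlapped a peak in both replicates, against 63.8% of all 22771 weaker pooled peaks. That share is at the level of the whole list.

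PlexA, the receptor of Sema1a, had a single summit, upstream of its start. The gene (FBgn0025741, chr4:1009895-1027101, minus strand, 17.2 kb) has 1 annotated start, and the summit lay 192 bp upstream of it in the peak chr4:1027132-1027457. Its signal of 679 ranked 1134 of 7229 and was the highest of the 8 reproducible summits on chromosome 4, the next being 474. Of the 80 protein-coding genes on that chromosome, 4 (5.0%) had a summit in the body or within 1 kb, among them PlexA. The noncoding gene asRNA:CR44031 also starts within 1 kb of the summit.

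The replicates disagreed at PlexA. In replicate 3 the overlapping peak had a signal of 465 at rank 843 of 30000, with its summit 10 bp from the joint one. In replicate 1 no peak overlapped it, and the nearest summit was 1233 bp away with a signal of 35.5 at rank 15521. The PlexA peak was 1 of 148 reproducible peaks (2.05%) that overlapped a peak in replicate 3 only. Of the 148, 8 had a signal of 679 or more, PlexA included. It was also the only 1 of the 8 chromosome 4 peaks without a replicate 1 match. The peak is therefore strong in 1 library and absent from the list of the other, and the cause was not tested.

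The PlexA window is shown because it is the only summit window at a receptor gene and holds closely spaced motif matches. It holds 50 bases on either side of the summit on the plus strand. Capitals mark GATAA on either strand and GAGAG on the minus strand. Matches on the minus strand are printed as TTATC and CTCTC, which share letters here.
PlexA, 192 bp upstream (chr4:1027243-1027343): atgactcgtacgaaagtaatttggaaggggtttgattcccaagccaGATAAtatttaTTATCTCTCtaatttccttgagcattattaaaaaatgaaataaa
GATAA begins 4 bases before the summit on the plus strand. TTATC begins 7 bases and CTCTC 11 bases after it. The window is 29.7% G+C, equal to the median of all windows.

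PlexB, the receptor of Sema2a and Sema2b, had no peak in any list. The gene (FBgn0025740, chr4:32478-43778, minus strand, 11.3 kb) had no summit in its body or within 1 kb in the reproducible, pooled, replicate 1 or replicate 3 list. The nearest reproducible summit was 16726 bp away, with a signal of 144, and the nearest replicate summits were 15498 bp (replicate 1) and 12761 bp (replicate 3) away. Chromosome 4 had 30 peaks in replicate 1 and 35 in replicate 3, of 30000 each.

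Over the family, 15 of the 17 summits (88.2%) overlapped a peak in both replicates, against 97.3% of all reproducible peaks. The 17 are not independent, since 10 lie at Sema1a and the pair at its promoter shares a replicate 3 peak. The reproducible list was also chosen on these same replicates, so the share is only a description. With replicate summits required to lie within 100 bp, 12 of the 17 (70.6%) matched in both, against 93.6% of all, and with a reciprocal overlap of 0.5 of each peak, 9 of the 17 (52.9%) did, against 72.2% of all. The family shares lie below those of the list under all 3 rules, and the differences were not tested. The reciprocal rule also depends on peak width. The 128 bp joint peak at 60.744 kb of Sema1a failed it, with replicate summits only 34 and 13 bp away. By overlap of 1 bp, the unmatched summits were the upstream ones of PlexA and Sema1b, each missing from a different replicate. Among the 15 matched summits the replicate 1 signals ran from 67.5 to 368 with a median of 124, and the replicate 3 signals from 74.4 to 423 with a median of 140. By rank within its own list, the summit stood higher in replicate 1 in 11 and in replicate 3 in 4 of the 15. The shared replicate 3 peak counts for both Sema1a promoter summits. No share over all reproducible peaks stands beside this count, so it cannot be read as a trait of the family. The replicate 1 ranks ran from 820 to 7818 and the replicate 3 ranks from 989 to 7363, of 30000 each.

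**Figure D4:**
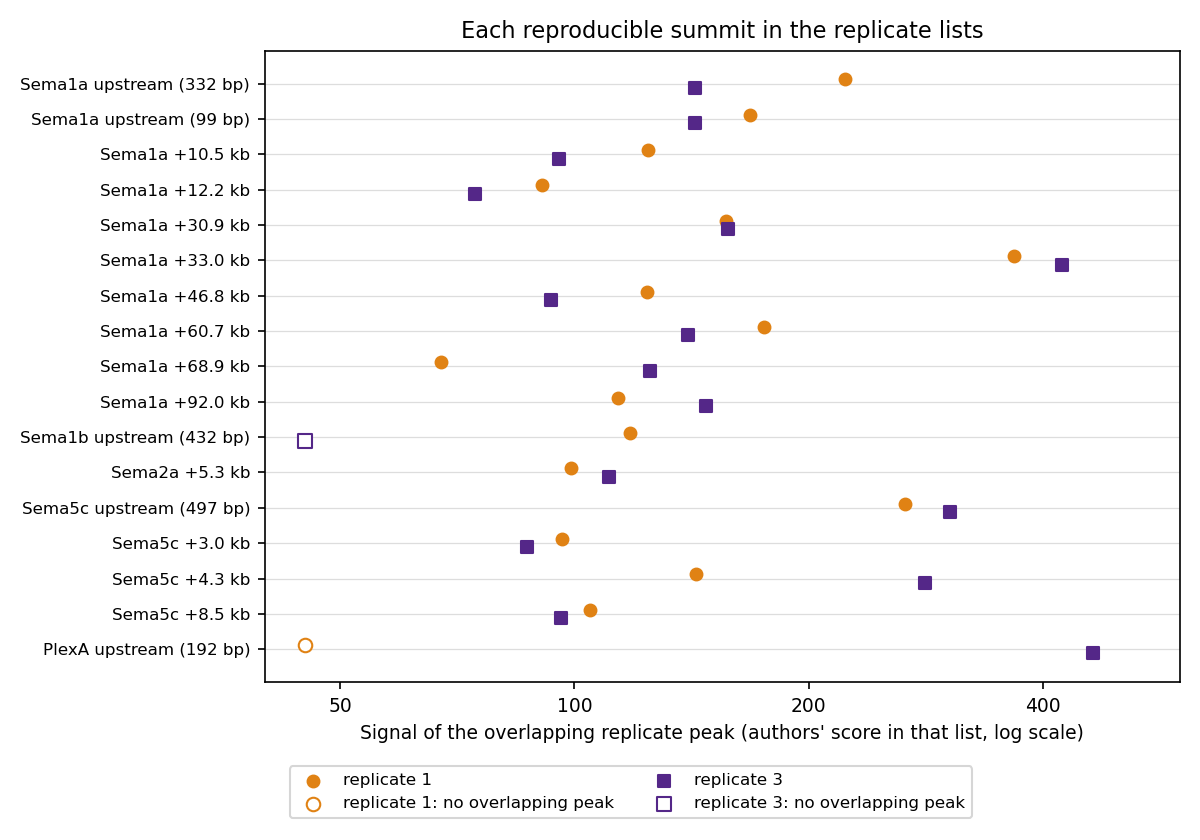
Signal of the replicate peak that overlaps each of the 17 reproducible summits (authors' score in that list, log scale). Circles are replicate 1, squares replicate 3, and open symbols at the left edge mark a replicate with no overlapping peak. PlexA reaches 465 in replicate 3 and has no match in replicate 1, Sema1b has none in replicate 3, and the other 15 are matched in both.

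Most of the listed genes that act with plexins had a summit. Of 20 listed partners, 16 had a summit in the body or within 1 kb, against 30.4% of all protein-coding genes, and 9 had one within 1 kb of a start, against 23.3%. Of the 11 partners under 10 kb long, 8 had a summit in the body or within 1 kb, against 24.4% of all genes under 10 kb. At 4 of those 8 a summit lay within 1 kb of a start of the gene. Of the 5 partners of 10 to 20 kb, 4 had a summit in the body or within 1 kb, against 57.6%. Of 20 to 50 kb, 4 of 4 did, against 72.9%. The list was drawn up with earlier results of these data known, and its share was not tested. The strongest were at Mical (signal 878, 3 summits), the actin-oxidising enzyme that acts downstream of PlexA, and Gyc76C (845, 2 summits), a receptor guanylyl cyclase that acts with Sema1a. Rac1 (624), a small GTPase, and Pka-C1 (541), a protein kinase A catalytic subunit, followed with 1 summit each. Neither of these 2 summits lay within 1 kb of a start of its gene, so they may belong to other genes. The gene otk, for a receptor-like kinase that associates with plexins, had 3 summits with a highest signal of 229, and otk2 had none. Those without a summit were RhoGAPp190, capt, otk2 and ssh.

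Other guidance genes included some with many summits and some with none. Of 12 genes for Slit, Robo, Netrin, Eph and related cues and receptors, 7 had a summit, against 30.4% of all protein-coding genes. They were led by unc-5 (12 summits, strongest 2338), sli (6, 847), fra (7, 843) and NetB (6, 733). By length, 1 of 3 under 10 kb and 0 of 1 of 10 to 20 kb had a summit, against 24.4% and 57.6% of all genes. The counts were 4 of 5 at 20 to 50 kb and 2 of 3 at 50 kb or more, against 72.9% and 80.8%. Genes without a summit included Eph and Ephrin, both on chromosome 4, as well as robo1, robo3 and Dscam1. Of 14 genes for growth cone adhesion proteins and phosphatases, 11 had a summit, led by Ptp10D (9 summits, 760), Fas3 (4, 748), Nrt (2, 676) and Ptp99A (3, 662). In the same 4 length classes, from short to long, the counts were 1 of 3, 1 of 2, 2 of 2 and 7 of 7. The density was 0.864 summits per 10 kb for the plexin partners, 0.924 for the Slit, Robo and Netrin group and 0.561 for the adhesion group, with the semaphorins at 0.657 between them. The lists differ in gene length, with medians of 8.46, 37.7 and 47.2 kb, and differences between them were not tested.

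**Figure D5:**
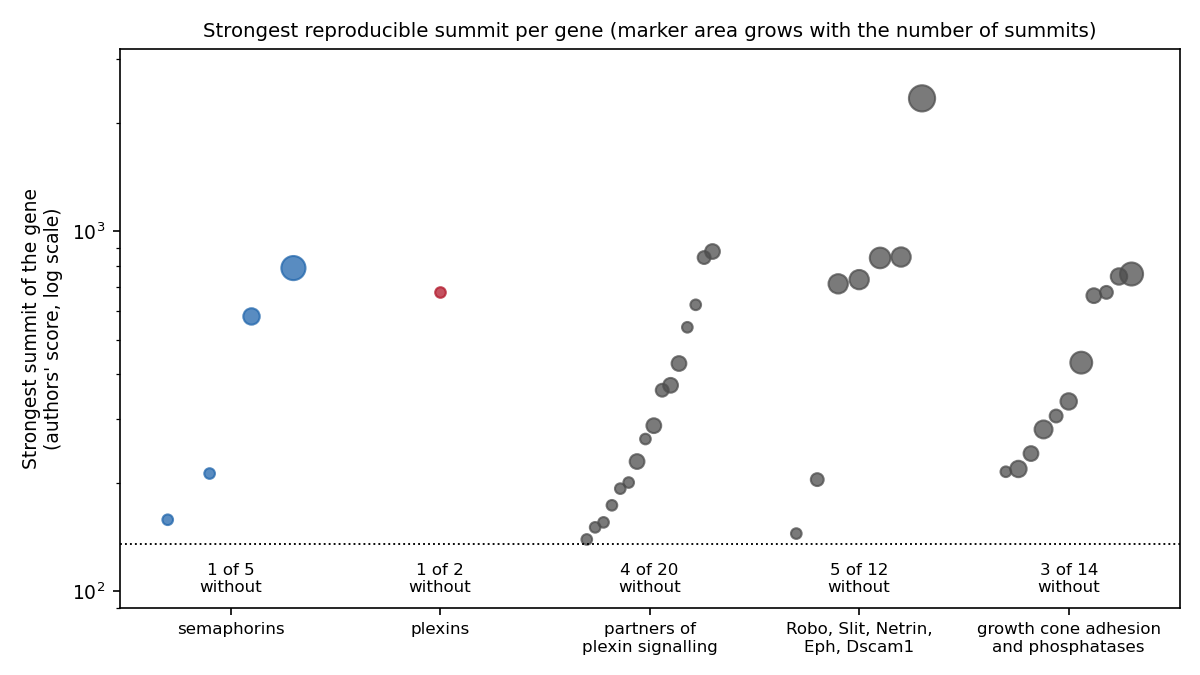
Signal of the strongest reproducible summit of each gene (authors' score, log scale) in 5 lists, with marker area growing with the number of summits. The text under each column counts the genes without a summit, and the dotted line marks the lowest reproducible signal of 135. Sema1a at 790 and PlexA at 679 lie below the highest plexin partner (Mical, 878) and unc-5 (2338), and Sema1a lies above the highest adhesion gene (Ptp10D, 760).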

How the data were processed

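Peak lists were deposited for each of the 2 replicates, for the pooled reads and for the IDR-thresholded set. The listing deposited with each sample names an alignment and a control as the inputs of each list and dm6 as the build, which the labels give too. The aligner, peak caller and settings are not given in the sources used here. Column 7 holds a score deposited by the authors for each peak, used here as the signal. Column 9, by its deposited format, is −log10 of the authors' q-value. It was at its highest value in all 7229 reproducible peaks and was not used. Those peaks are also in the pooled list with the same signal. Peak width was fixed in most rows (436 bp in 86.7% of replicate 1, 380 bp in 84.7% of replicate 3), so an overlap depends on that width. Sonicated fragments were 200 to 800 bp, per the labels.

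Gene models came from Ensembl release 115 and sequence from the RefSeq copy of the same assembly. All peaks lay within its chromosome lengths. Summits (column 2 plus column 10, written 1-based) were assigned with a flank of 1 kb. Replicate matches needed an overlap of 1 bp, with the nearest summit taken. Sequence windows held 50 bases on either side of the summit. The sequence of 1 member window is not reported here, and its base composition and motifs are left out. Python 3.11.15, pandas 2.3.3 and numpy 2.4.6 were used, and summit assignment was tested on simulated positions.

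No statistical test was run. All members are named, each with every reproducible summit, and the 4 strongest genes of each other list, with further genes singled out after their values were seen. The members and lists were chosen with earlier results of these data known. Alternatives were other flanks, a stricter list, each replicate alone, distinct intervals and other match rules.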

Additional observations from a re-analysis of the deposited data

How the results depend on the processing

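Sema1a and Sema5c had summits under every alternative run, and PlexB had none under any of them. The stronger 3614 reproducible peaks left 8 summits at 3 of the 7 genes, 7 of them matched in both replicates, and 0.288 summits per 10 kb at the ligand genes, since fewer peaks were counted. Without a flank, 3 genes kept a summit and the receptor genes fell to 0 per 10 kb, since the PlexA and Sema1b summits lie upstream of the gene. With a flank of 2 kb, Sema2b gained 1 summit. The highest 7229 peaks of a single replicate gave 4 genes in either case, 14 to 17 summits, 0.534 to 0.698 per 10 kb at the ligand genes and 0 to 0.308 at the receptor genes. Without replicate 1, Sema1b had no summit, and without replicate 3, PlexA had none. With a reciprocal overlap of 0.5 of each peak, 9 summits (52.9%) matched in both replicates, against 72.2% of all reproducible peaks. With summits within 100 bp, 12 (70.6%) did, against 93.6% of all. Counting distinct intervals once changed no count. No paired analysis was possible because there is 1 group. Depth is unknown, so the precision of a single signal cannot be given.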
